A study of Mus musculus with 12 samples.

Results

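The genes described here encode proteins that visceral endoderm secretes or takes up: the carriers Afp and Ttr, the apolipoproteins Apoa1, Apoa2, Apoa4, Apob and Apoe, and the uptake receptors Amn, Cubn and Lrp2. They were chosen by symbol for these roles, with earlier results of these data known. All 10 have a row in the table of 24495 genes and passed the filter on low counts. RNA-seq libraries were made from CCE-Nanog-GFP mESCs, a mouse embryonic stem cell line with a GFP reporter of Nanog. The cells were grown on gelatin with LIF and sorted for GFP before use. The shSC cells carried a scrambled shRNA and the shCTSL cells an shRNA against Ctsl, which encodes the protease cathepsin L. The shRNA against Ctsl was delivered by lentivirus in pLKO.1, followed by puromycin selection, and 1 shCTSL line was sequenced. Each line was sampled undifferentiated (Day 0) and after 2 and 4 days as rotated embryoid bodies without LIF and with all-trans retinoic acid (Day 2, Day 4). With 2 libraries in each of the 6 groups, there were 12 libraries. The knockdown libraries are labelled KD and the control libraries WT and scr, which were taken as shSC.

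Visceral endoderm is the extraembryonic epithelium that surrounds the early mouse embryo and feeds it before the placenta works. It absorbs maternal proteins and lipids through an apical endocytic system, in which the large receptor megalin (Lrp2) and the complex of cubilin (Cubn) with amnionless (Amn) bind ligands that include apolipoproteins and carriers of vitamins. It also secretes plasma proteins that the liver makes later, among them alpha-fetoprotein (Afp), transthyretin (Ttr) and lipoproteins built on apolipoprotein B (Apob).

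Promoter sequences were found for 9 of the 10 genes, all but Ttr, among the RefSeq start sites of GRCm38.p6, with 12 start sites in all. The 250 bases before each start were searched on both strands for motifs of factors of visceral endoderm and liver. These were the motif of GATA factors (AGATAA or TGATAA), FOXA (TGTTTAC or TGTTTGC), an HNF1 core (GTTAAT) and an HNF4 core (AAAGTCC or AAAGGTC). A FOXA motif stood before Afp, Apoa1, Apoa2 and Apob, that is in 4 of the 12 windows, and in 7.29% of all 32851 windows of that length. The HNF1 core matched in 2 windows (6.43% of all) and the HNF4 core in 2 (6.76% of all). GATA matched in 0 of the 12 windows, against 16.6% of all. No motif was found before Apoa4, Amn, Cubn or Lrp2. The 4 windows with a FOXA motif are shown because they hold a match and their genes rose from Day 0 to Day 4, and that of Lrp2 as a window without a match whose gene fell. Apoa4 and Cubn also rose, and their windows, which held no match, are not shown. Apoe fell in shSC, and the HNF1 core before 1 of its 3 start sites is not shown either. Each is given 5′ to 3′ in the direction of its gene, from base 250 to base 41 before the start, with matches in capitals, and a match on the opposite strand reads as its reverse complement. The windows are chr5:90490464-90490673 on the plus strand for Afp, chr9:46228380-46228589 on the plus strand for Apoa1, chr1:171224804-171225013 on the plus strand for Apoa2, chr12:7977427-7977636 on the plus strand for Apob and chr2:69586070-69586279 on the minus strand for Lrp2.
Afp: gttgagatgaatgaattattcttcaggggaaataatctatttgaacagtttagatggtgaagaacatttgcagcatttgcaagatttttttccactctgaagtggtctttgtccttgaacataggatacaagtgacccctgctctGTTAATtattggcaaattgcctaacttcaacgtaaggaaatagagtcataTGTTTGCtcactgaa
Apoa1: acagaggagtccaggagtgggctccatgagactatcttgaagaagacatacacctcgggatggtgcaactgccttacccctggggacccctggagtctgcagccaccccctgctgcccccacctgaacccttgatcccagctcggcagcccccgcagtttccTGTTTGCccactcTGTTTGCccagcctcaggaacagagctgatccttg
Apoa2: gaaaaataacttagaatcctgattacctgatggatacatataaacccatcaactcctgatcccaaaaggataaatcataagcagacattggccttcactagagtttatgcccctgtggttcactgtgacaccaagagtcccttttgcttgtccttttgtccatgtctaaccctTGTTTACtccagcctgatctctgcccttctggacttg
Apob: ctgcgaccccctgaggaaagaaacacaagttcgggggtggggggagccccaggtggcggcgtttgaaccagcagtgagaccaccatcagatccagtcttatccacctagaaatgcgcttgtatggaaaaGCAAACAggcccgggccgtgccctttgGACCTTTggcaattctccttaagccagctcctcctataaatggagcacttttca
Lrp2: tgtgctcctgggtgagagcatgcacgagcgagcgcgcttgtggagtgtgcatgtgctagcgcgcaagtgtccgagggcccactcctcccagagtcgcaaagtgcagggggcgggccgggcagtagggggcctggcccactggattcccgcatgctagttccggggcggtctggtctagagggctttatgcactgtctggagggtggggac
The HNF1 core of Afp lay 105 to 100 bases before the start and its FOXA motif 55 to 49 bases before it. Apoa1 had 2 copies of the FOXA motif, ending 82 and 69 bases before the start. In Apob the FOXA motif and the HNF4 core were both on the opposite strand, ending 115 and 88 bases before the start. A match of these letters is a description and not a binding site.

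The libraries held 11171111 to 27155553 counted fragments, and the 10 genes together took 0.0357 to 0.0782% of them. Levels are given as normalised CPM, the counts scaled to a library of 1000000 after TMM scaling. Ctsl was lower in shCTSL, with 142 ± 7.15 against 38.4 ± 1.23 CPM at Day 0, 380.2 ± 15.8 against 183 ± 39.0 at Day 2 and 453 ± 42.9 against 255 ± 3.31 at Day 4 (shSC before shCTSL, SD, n = 2). The difference was called at Day 0 (adjusted p = 0.00246) and Day 2 (adjusted p = 0.0342) and not at Day 4 (log2 -0.83, adjusted p = 0.0896, edgeR). The 2 libraries of shCTSL at Day 2 stood apart from each other. Over 15154 genes their log2 ratio, replicate 1 over replicate 2, changed by -0.339 with each doubling of exonic length, against -0.054 to 0.074 in the other 5 groups. The cause of this difference was not tested, and changes that rest on these libraries are also given without each of them where that moved a change by over 1.5 times or altered a call.

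The labelled material is embryoid bodies and not visceral endoderm, so markers of the cell types that such bodies can hold were examined. The 7 visceral endoderm markers that are not among the 10 genes and are in the table (Hnf4a, Foxa2, Gata4, Gata6, Sox17, Dab2 and Ihh) rose from Day 0 to Day 4 in both lines, 7 of 7 in each. Their summed level was 10.1 to 12.5 CPM at Day 0 in the 4 libraries of both lines, 206 to 247 at Day 2 and 421 to 484 at Day 4. Of the 9 parietal endoderm markers, such as Lama1, Col4a1 and Sparc, 9 rose in shSC and 8 in shCTSL, and their sum went from 650.2 to 686 CPM at Day 0 to between 2794 and 3118 at Day 4. The 5 markers of definitive endoderm and gut summed to 0.839 to 1.86 CPM at Day 0, to 58.1 to 114 at Day 2 and to 17.6 to 25 at Day 4. Of the 4 of them tested, 3 rose from Day 0 to Day 4 in each line. The 7 hepatocyte markers, which include Alb, summed to 0.724 to 3.33 CPM over all 12 libraries, and G6pc had no reads in 4 of the 6 groups. The 5 pluripotency markers fell in both lines, 5 of 5 in each. The 4 mesoderm markers summed to 3.05 to 5.0 CPM at Day 0 in both lines, to 95.5 to 98.9 in shSC and 27.4 to 54.1 in shCTSL at Day 2, and to 110.2 to 111 in shSC and 84.1 to 104 in shCTSL at Day 4. Of the 3 mesoderm markers tested, only 1 rose from Day 0 to Day 4 in each line, and 1 fell in shCTSL. The 5 neural progenitor markers summed to 214 to 245 CPM at Day 0, 133 to 176 at Day 2 and 126 to 156 at Day 4. Most of them did not follow the sum: from Day 0 to Day 4, 3 rose and 1 fell in shSC, and 4 rose and 1 fell in shCTSL. In bulk RNA, a higher share of cells of one type and more transcript per cell cannot be told apart. The part of other cell types in the values below was not tested.

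A gene was called changed at an adjusted p under 0.05 and at least 1.5-fold in edgeR's quasi-likelihood test. In shSC, 5 of the 10 genes (Afp, Ttr, Apoa2, Apob and Cubn) rose from Day 0 to Day 2, against 29.3% of the 15532 genes tested. From Day 0 to Day 4, 7 rose (32.1% of all genes) and Apoe and Lrp2 fell (28.7% of all genes). From Day 2 to Day 4, Afp, Ttr, Apoa1, Apoa4 and Cubn rose (11.4% of all genes) and Lrp2 fell (12.4%). In shCTSL, 7 of the 10 rose from Day 0 to Day 2 (30.9% of all genes), namely Afp, Ttr, Apoa1, Apoa4, Apob, Amn and Cubn. From Day 0 to Day 4, 8 rose (32.3%) and Lrp2 fell (27.6%), and from Day 2 to Day 4, 6 rose (11.0%) and Apoe fell (12.4%). The last 7 calls became 4 without replicate 1 of shCTSL Day 4. The median log2 fold change of the 10 genes from Day 0 to Day 4 was 4.76 in shSC and 3.97 in shCTSL, with genes without reads at Day 0 entered at their lower bound, and that of all genes tested was 0.03 and 0.06. Afp, Ttr, Apoa1, Apoa2 and Apoa4 had 0 to 5 counts over a Day 0 group and passed the filter only through later days. From Day 0 they could thus only be called higher, which bears on these counts and medians. Apoa1, Apoa2 and Apoa4 passed only through Day 4, so the same holds for them from Day 2 to Day 4.

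**Figure D1:**
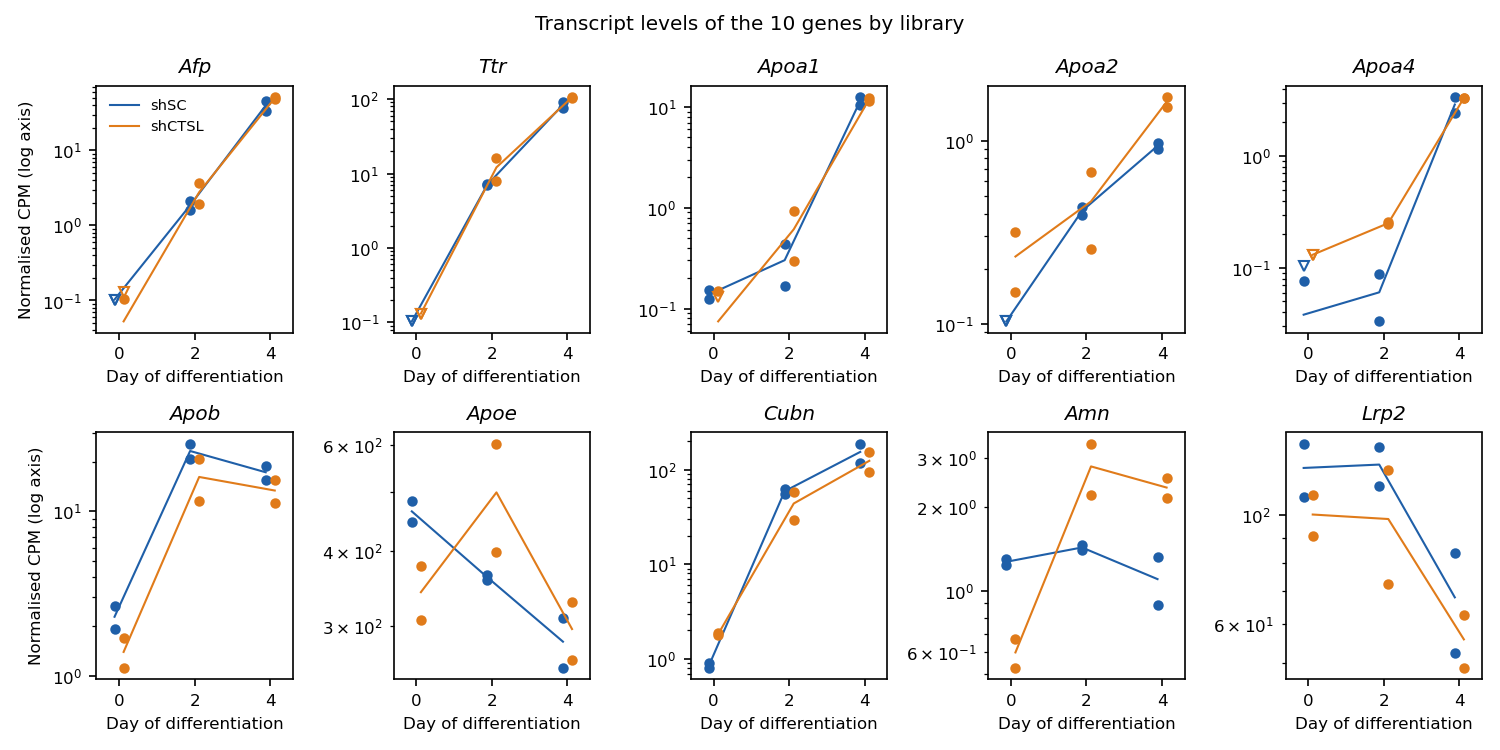
Normalised CPM of each gene in each library (points, log axis) on Day 0, 2 and 4, with a line through the group means, shSC in blue and shCTSL in orange. Open triangles mark libraries without a read, drawn at the level of 3 counts over their group. Afp and Ttr climb to over 33 CPM by Day 4 in all 4 libraries, and Lrp2 is the receptor that falls.

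Afp and Ttr, the secreted carriers, were absent or nearly so at Day 0 and rose at each step. Afp encodes the main fetal plasma protein, and Ttr carries thyroid hormone and, with retinol-binding protein, retinol. Afp (mm9 chr5:90919740-90937933) had no reads in either shSC library at Day 0, 1.59 and 2.10 CPM at Day 2 and 45.7 and 33.4 CPM at Day 4. In shCTSL it had 0 and 0.105 CPM, the latter from 1 read, at Day 0, then 3.63 and 1.92 at Day 2 and 51.0 and 48.5 at Day 4. The libraries of each day lay wholly above those of the day before in both lines. Against a floor of 3 counts over the Day 0 group, Afp in shSC was at least 17.7-fold higher at Day 2 (adjusted p = 0.000240) and at least 399-fold higher at Day 4 (adjusted p = 4.45e-07, edgeR). In shCTSL the ratio of counts from Day 0 to Day 4 was 1137, with an exact 95% interval of 204 to 44940 that covers counting error only.

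Ttr (mm9 chromosome 18, 20823751 to 20832825) had no reads in any of the 4 Day 0 libraries. It reached 6.90 and 7.27 CPM in shSC and 16.2 and 8.0 in shCTSL at Day 2, and 91.6 and 75.9 in shSC and 106 and 105 in shCTSL at Day 4. Again no library of a later day overlapped one of an earlier day. The rise from Day 0 to Day 4 was at least 834-fold in shSC and at least 808-fold in shCTSL. From Day 2 to Day 4, Ttr rose 11.8-fold in shSC (log2 3.56 ± 0.30 SE, adjusted p = 8.41e-05) and Afp 21.6-fold (log2 4.43 ± 0.31 SE, adjusted p = 1.67e-05, edgeR). Day 2 levels were thus 8.46% of Day 4 levels for Ttr and 4.67% for Afp in shSC, and 11.5% and 5.58% in shCTSL. Ttr was the more abundant of the pair per kb of exon, by 6.67 ± 1.06 times at Day 2 and 3.66 ± 0.330 times at Day 4 in shSC (SD, n = 2). The ratios in shCTSL were 7.40 ± 0.359 and 3.64 ± 0.111.

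Apoa1, Apoa2 and Apoa4 encode apolipoproteins of high-density lipoproteins and chylomicrons. Apoa1 (mm9 chr9:46036663-46038549) and Apoa4 (chr9:46048779-46051542) lie 10229 bases apart in one cluster, and both rose mainly after Day 2. Apoa1 was at 0.152 and 0.124 CPM in shSC at Day 0, at 0.166 and 0.438 at Day 2, and at 10.5 and 12.5 at Day 4. In shCTSL it was at 0.149 and 0 CPM, then 0.923 and 0.298, then 11.5 and 12.4. Only the Day 4 libraries stood well clear of the others in either line. Its Day 2 level was 2.63% of that at Day 4 in shSC and 5.09% in shCTSL, and the rise between these days was 39.1-fold in shSC (log2 5.29 ± 0.43 SE, adjusted p = 1.95e-05, edgeR) and 20.9-fold in shCTSL (log2 4.39 ± 0.40 SE). The latter was log2 5.28 without replicate 1 of shCTSL Day 2 and 3.69 without replicate 2. The rise of Apoa1 from Day 0 to Day 2 in shCTSL (22 against 2 counts, adjusted p = 0.0394) was no longer called without any one of 9 of the 12 libraries, with adjusted p from 0.0501 to 0.159, the last without replicate 2 of shCTSL Day 0. It was log2 1.74 without replicate 1 of Day 2 and 3.31 without replicate 2, against 2.61 with both. With limma-voom it was log2 2.40 and not called (adjusted p = 0.174).

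Apoa4, which coats intestinal lipoproteins, was at 0.0762 and 0 CPM in shSC at Day 0, 0.0332 and 0.0875 at Day 2 and 3.36 and 2.43 at Day 4. In shCTSL it was at 0 and 0, 0.246 and 0.255, and 3.30 and 3.30 CPM. The shCTSL libraries at Day 2 lay above those of shSC, from 10 counts against 3. From Day 2 to Day 4 the ratio of counts in shSC was 52.9 (exact 95% interval 17.6 to 260.4), and the fold change in shCTSL was 12.8 (adjusted p = 0.000150, edgeR). The latter was not called with limma-voom (log2 3.59, adjusted p = 0.166). The call of Apoa4 from Day 0 to Day 2 in shCTSL, at least 1.92-fold, was lost without replicate 1 of Day 0 and with limma-voom (adjusted p = 0.187). The exons of Apoa4 share 632 bases with Gm10680 on the opposite strand, and reads from both genes cannot be told apart unless the counting kept the strand.

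Apoa2 (mm9 chr1:173155185-173156510) followed a more gradual course and stayed low. In shSC it had no reads at Day 0, 0.432 and 0.394 CPM at Day 2 and 0.972 and 0.902 at Day 4. In shCTSL it was at 0.149 and 0.316, 0.677 and 0.255, and 1.73 and 1.52 CPM. Day 0 and Day 2 libraries did not overlap in shSC and did in shCTSL. Its Day 2 level was already 44.1% of that at Day 4 in shSC and 28.6% in shCTSL. The rise from Day 0 to Day 4 was at least 9.21-fold in shSC (adjusted p = 0.000325) and 7.22-fold in shCTSL (log2 2.85 ± 0.53 SE, adjusted p = 0.00108, edgeR). The rise after Day 2 was called in shCTSL (3.69-fold, adjusted p = 0.00734, edgeR) but not without replicate 1 of Day 4 (log2 1.78). It was also not called with limma-voom (adjusted p = 0.306) or with only the libraries compared (adjusted p = 0.0905). It was log2 2.62 without replicate 1 of Day 2 and 1.25 without replicate 2, against 1.88. In shSC it was not called (1.17, adjusted p = 0.0620), but it was without replicate 1 (adjusted p = 0.0220) or replicate 2 (0.0198) of shCTSL Day 2, with limma-voom (0.00917), with only the libraries compared (0.0187) and with offsets for exonic length (0.0146).

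Apob and Apoe, the structural and receptor-binding proteins of very low density lipoproteins, differed in their levels at the start. Apob (mm9 chr12:7984454-8023641), around which such particles are assembled, reached its highest level by Day 2. It went from 2.67 and 1.92 CPM in shSC at Day 0 to 20.7 and 25.8 at Day 2 and 19 and 15.5 at Day 4. In shCTSL it went from 1.12 and 1.69 to 11.6 and 20.8 and then to 15.6 and 11.2 CPM. Day 2 and Day 4 libraries of shSC did not overlap, with Day 4 lower, and those of shCTSL did. The rise to Day 2 was 10.2-fold in shSC (log2 3.35 ± 0.34 SE, adjusted p = 1.43e-05) and 11.9-fold in shCTSL (log2 3.57 ± 0.38 SE, adjusted p = 2.15e-05, edgeR). The later difference, Day 4 against Day 2, in shSC was a log2 value of -0.42 that did not pass the test (adjusted p = 0.288), though it did with offsets for exonic length (-0.63, adjusted p = 0.00851). In shCTSL it was -0.28 (adjusted p = 0.488) and was called without replicate 1 of Day 2 (-0.66, adjusted p = 0.00999), while it was 0.21 (adjusted p = 0.436) without replicate 2.

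Apoe (mm9 chr7:20281458-20284515), a ligand of the LDL receptor family, was abundant in undifferentiated cells. Its libraries held 447 and 484 CPM in shSC at Day 0, 364 and 358 at Day 2 and 309 and 255 at Day 4. In shCTSL they held 377 and 306, 603 and 398, and 263 and 329 CPM. The libraries fell from day to day in shSC without overlap, while in shCTSL those of Day 2 were the highest. The fall from Day 0 to Day 4 was called in shSC (log2 -0.72 ± 0.20 SE, adjusted p = 0.00830, edgeR), but not without replicate 2 of Day 4 (-0.59, adjusted p = 0.0714). In shCTSL Apoe differed by -0.21 over the same span (adjusted p = 0.374). Its Day 2 level there was 0.55 above Day 0, under the fold cutoff, and was called without replicate 1 of Day 0 (0.71, adjusted p = 0.0410) or replicate 2 of Day 2 (0.82, adjusted p = 3.4e-05), and was 0.26 (adjusted p = 0.0971) without replicate 1 of Day 2. Apoe fell there from Day 2 to Day 4 (-0.76 ± 0.20 SE, adjusted p = 0.0171, edgeR). This fall was not called with limma-voom (-0.73, adjusted p = 0.140) or with only the libraries compared (-0.77, adjusted p = 0.169). Without replicate 1 of shCTSL Day 2 it was -0.45 and under the fold cutoff, and without replicate 1 of Day 4 it was -0.61 and not called.

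The uptake receptors diverged. Cubn (mm9 chr2:13197965-13413551) encodes cubilin, which binds albumin, Apoa1 and the complex of vitamin B12 with intrinsic factor. It rose from 0.915 and 0.805 CPM in shSC at Day 0 to 55.8 and 62.6 at Day 2 and 188 and 119 at Day 4. In shCTSL it rose from 1.86 and 1.79 to 29.5 and 58.3 and then to 153 and 93.8 CPM. No 2 days overlapped in either line. The rise from Day 0 to Day 2 was 68.7-fold in shSC (log2 6.10 ± 0.48 SE, adjusted p = 2.55e-06) and 24.0-fold in shCTSL (log2 4.58 ± 0.45 SE, adjusted p = 1.07e-05, edgeR). To Day 4 it was 178-fold and 67.2-fold. Between Day 2 and Day 4 Cubn rose 2.60-fold in shSC (adjusted p = 0.00961) and 2.80-fold in shCTSL (adjusted p = 0.00711). These calls were lost without either shSC Day 2 library (adjusted p = 0.0790 and 0.0522), without replicate 1 of shSC Day 4 (0.101) and, in shCTSL, without replicate 1 of Day 4 (0.0719). The shCTSL call was also lost with limma-voom (log2 1.49, adjusted p = 0.109) and with only the libraries compared (log2 1.47, adjusted p = 0.101). The exons of Cubn share 161 bases with Gm13270 on the opposite strand.

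Amn (mm9 chr12:112509322-112514637) encodes amnionless, the membrane partner that cubilin needs to reach the cell surface, and it did not rise with Cubn in shSC. It was at 1.30 and 1.24 CPM in shSC at Day 0, 1.46 and 1.40 at Day 2 and 0.884 and 1.32 at Day 4. In shCTSL it went from 0.671 and 0.527 to 3.38 and 2.21 and then to 2.54 and 2.16 CPM. The Day 2 and Day 4 libraries of shCTSL lay above every shSC library, and its Day 0 libraries below every one. In shSC no change of Amn passed the test (log2 -0.24 ± 0.33 SE from Day 0 to Day 4, adjusted p = 0.532). In shCTSL it rose 4.48-fold to Day 2 (log2 2.16 ± 0.35 SE, adjusted p = 0.000362) and 3.83-fold to Day 4 (log2 1.94 ± 0.36 SE, adjusted p = 0.000754, edgeR). These values rest on 14 counts at Day 0 and 91 at Day 4 over both libraries of shCTSL, and 37 and 39 in shSC.

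Lrp2 (mm9 chr2:69262397-69424122) encodes megalin, the large receptor with which cubilin is taken up, and was the receptor that was abundant from the start. Its libraries held 140.1 and 109 CPM in shSC at Day 0, 115 and 138 at Day 2 and 83.7 and 52.3 at Day 4. In shCTSL they held 90.7 and 110.1, 72.3 and 124, and 62.7 and 48.8 CPM. The Day 0 and Day 2 libraries overlapped in both lines, and the Day 4 libraries were the lowest in each. The fall from Day 0 to Day 4 in shSC was log2 -0.87 ± 0.29 SE (adjusted p = 0.0199), and shCTSL gave -0.85 ± 0.29 SE (adjusted p = 0.0236, edgeR). It was not called in shSC without replicate 1 of Day 0 (-0.68, adjusted p = 0.12) or replicate 2 of Day 4 (-0.57, adjusted p = 0.154), nor in shCTSL without replicate 2 of Day 0 (-0.71, adjusted p = 0.12) or of Day 4 (-0.68, adjusted p = 0.142). The shSC fall from Day 2 (-0.89 ± 0.29 SE, adjusted p = 0.0384) was lost without any one of 8 of the 12 libraries, with adjusted p up to 0.236 without replicate 2 of Day 4. The like difference in shCTSL was -0.82 and not called (adjusted p = 0.0545, edgeR). It was called by DESeq2 (-0.80, adjusted p = 0.0338) and, in edgeR, without a filter on low counts (-0.85, adjusted p = 0.00531). It was also called with offsets for exonic length (-1.11, adjusted p = 0.000355), but not with limma-voom (-0.79, adjusted p = 0.368). Leaving out either shSC Day 4 library (-0.82 in both) or replicate 1 of shCTSL Day 2 (-1.18) gave a call too. Without replicate 2 of shCTSL Day 2 it was -0.38 (adjusted p = 0.141).

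Levels of different genes were compared per kb of exonic length. At Day 0 in shSC the order was Apoe (235 ± 13.4 CPM per kb), Lrp2 (7.46 ± 1.31) and Amn (0.752 ± 0.0239), with the other 7 genes at or under 0.165 (SD, n = 2). At Day 4 it was Apoe (142 ± 19.4), Ttr (68.7 ± 9.07), Afp (18.9 ± 4.18), Cubn (13.0 ± 4.15), Apoa1 (9.29 ± 1.15), Lrp2 (4.07 ± 1.33), Apoa2 (1.74 ± 0.0931), Apoa4 (1.59 ± 0.363), Apob (1.24 ± 0.178) and Amn (0.653 ± 0.182). Cubn and Apoa1 overlapped between libraries, as did Apoa2 with Apoa4 and Apoa4 with Apob, and all other neighbours were apart. In shCTSL at Day 4 the first 8 genes came in the same order, and Amn (1.40 ± 0.159) stood above Apob (0.962 ± 0.227). There Cubn with Apoa1 and Lrp2 with Apoa2 were the neighbours that overlapped. The ratio of Cubn to Lrp2 per kb was 0.00983 ± 0.000853 at Day 0, 0.663 ± 0.0317 at Day 2 and 3.20 ± 0.0239 at Day 4 in shSC, and 0.0260 ± 0.00429, 0.620 ± 0.0601 and 3.09 ± 0.527 in shCTSL. Cubn thus went from the lower to the higher of the 2 receptors in every library. The ratio of Cubn to Amn at Day 4 was 30.4 and 12.9 in the shSC libraries and 8.60 and 6.18 in those of shCTSL.

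**Figure D2:**
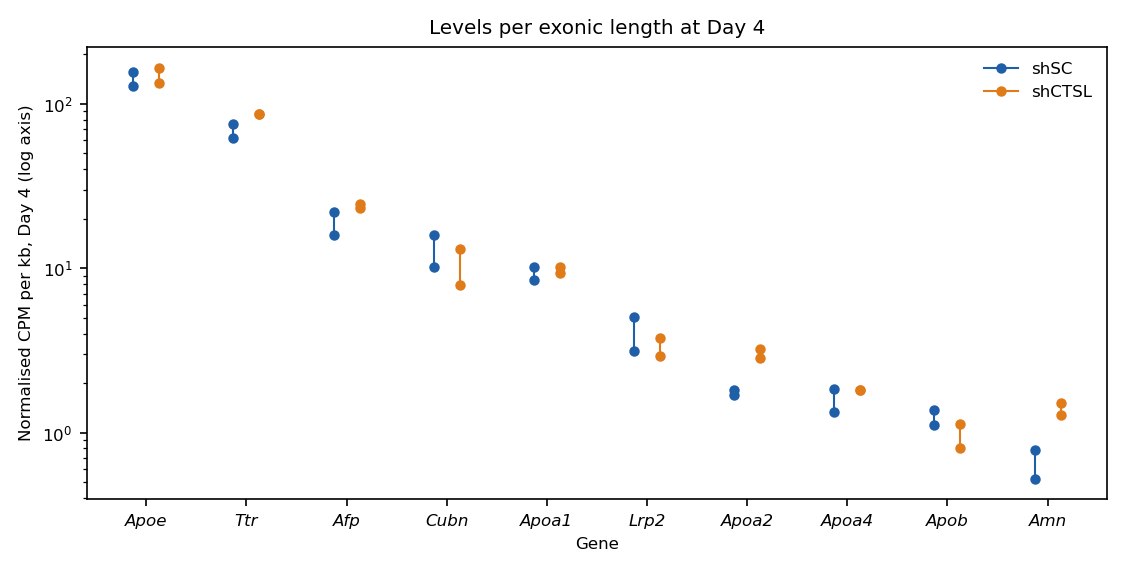
Normalised CPM per kb of exonic length at Day 4 (log axis), with the 2 libraries of each line joined by a line, genes in the order of shSC. Apoe and Ttr lead in both lines, and Amn is the gene whose shCTSL libraries (1.51 and 1.28) lie farthest above those of shSC by ratio (0.525 and 0.782).

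The lines were compared on each day to ask whether the knockdown of Ctsl changed these genes. None of the 10 was called between shCTSL and shSC by edgeR on any day, where 0.0386% of all genes were at Day 0, 0.0644% at Day 2 and 0.0129% at Day 4. DESeq2 also called 0 of the 10 on each day. At Day 2 it gave no adjusted p for Apoa2, Apoa4 and Amn, so these could not be called there. At an unadjusted p under 0.05 in edgeR there were 3 at Day 0 (Apoa2, Apoe and Amn), 4 at Day 2 (Ttr, Apoa4, Apoe and Amn) and 1 at Day 4 (Amn). Of all 15532 genes, 1127 reached this at Day 0, 3014 at Day 2 and 1897 at Day 4. At Day 4 the libraries of the lines did not overlap for Afp, Ttr, Apoa2 and Amn, all higher in shCTSL, and overlapped for the other 6. The share of all genes without overlap was not determined, so no conclusion about the knockdown is drawn from this. The log2 differences at Day 4 ranged from -0.37 ± 0.28 SE for Apob to 1.13 ± 0.29 SE for Amn (adjusted p = 0.223), and Afp (0.33 ± 0.25), Ttr (0.34 ± 0.26) and Cubn (-0.31 ± 0.32) lay between. The difference of Amn was called without either shCTSL Day 2 library, with a log2 difference of 1.15 (adjusted p = 0.00772) without replicate 1 and 1.14 (adjusted p = 0.00779) without replicate 2. It was then the only one of the 10, against 5.82% and 5.83% of all genes called, and those libraries are not part of the comparison but of the estimate of the spread. At Day 0 Amn was lower in shCTSL (log2 -1.05 ± 0.40 SE, adjusted p = 0.605). Apoa2 had 5 counts in shCTSL at Day 0 and 0 in shSC, so at least 2.13-fold more (adjusted p = 0.499).

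The interactions, the differences between the lines in a change between days, were called for 0 of the 10 genes from Day 0 to Day 4 (0.00644% of all genes by edgeR) and for 0 from Day 2 to Day 4 (0% of all genes by edgeR) by edgeR and by DESeq2. DESeq2 gave no adjusted p for Apoa2 in either interaction and for Apoa4 in that from Day 2 to Day 4, so it could not call these. At an unadjusted p under 0.05 in edgeR there were 2 (Apoa2 and Amn) from Day 0 to Day 4 and 1 (Apoa4) from Day 2 to Day 4. Over all 15532 genes, 1042 and 753 reached this, and DESeq2 called 28 and 11. Amn had an interaction of 2.18 ± 0.49 SE on the log2 scale from Day 0 to Day 4 (adjusted p = 0.492), and it was called without replicate 1 (adjusted p = 0.0299) or replicate 2 (adjusted p = 0.0284) of shCTSL Day 2. With limma-voom on all 12 libraries the interaction of Amn (2.16, adjusted p = 0.0412) and its difference at Day 4 (1.15, adjusted p = 0.0201) were called, so whether Amn differed between the lines depended on the tool and the libraries. From Day 2 to Day 4, Ttr (-0.86, adjusted p = 0.00331) and Apoe (-0.67, adjusted p = 0.0107) were called without replicate 2 of shCTSL Day 2, against -0.42 and -0.40 with it. Without replicate 1 in its place they were 0.15 (adjusted p = 0.645) and -0.07 (adjusted p = 0.846).

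At Day 2 the comparison turned on which shCTSL library was used. Replicate 1 over replicate 2 was 3.10 for Apoa1, 2.65 for Apoa2, 2.03 for Ttr, 1.90 for Afp, 1.53 for Amn and 1.52 for Apoe, whose exons total 0.537 to 2.086 kb, and 0.964 for Apoa4 (1.815 kb). It was 0.507 for Cubn, 0.557 for Apob and 0.582 for Lrp2, with 11.815 to 16.701 kb. The short genes other than Apoa4 were thus higher, and the 3 long ones lower, in replicate 1. With all libraries, the log2 differences between the lines were 0.76 ± 0.29 SE for Ttr (adjusted p = 0.235), 0.94 ± 0.26 SE for Amn (adjusted p = 0.222) and -0.51 ± 0.28 SE for Apob (adjusted p = 0.299, edgeR). Without replicate 2, 8 of the 10 were called, where 31.6% of all genes were: Afp (0.99), Ttr (1.20), Apoa1 (1.67), Apoe (0.74) and Amn (1.23) as higher in shCTSL and Apob (-1.01), Cubn (-1.01) and Lrp2 (-0.81) as lower. Without replicate 1, 0 of the 10 were called, where 0.604% of all genes were, and Ttr differed by 0.19 (adjusted p = 0.609), Apob by -0.15 (adjusted p = 0.730) and Cubn by -0.01 (adjusted p = 0.984). Each of these fits left 1 library in the group, assumed to vary like those of the other groups.

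**Figure D3:**
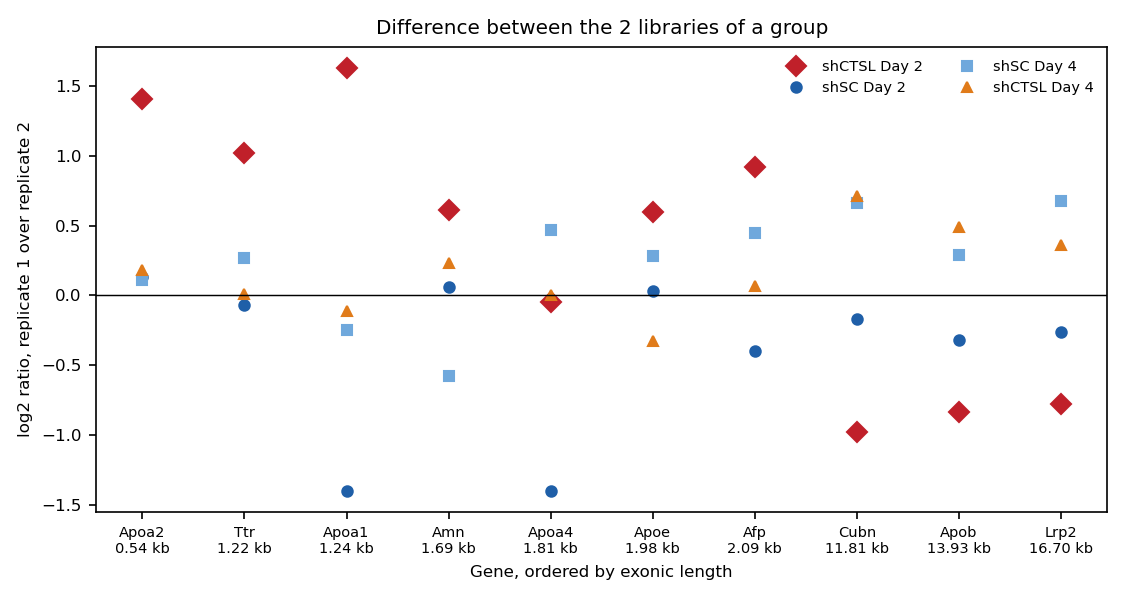
log2 ratio of replicate 1 over replicate 2 for each gene, ordered by exonic length in kb, in both lines at Day 2 and Day 4. The shCTSL Day 2 ratios (red diamonds) run from 1.63 for Apoa1 to -0.98 for Cubn, above 0 for 6 of the 7 short genes and below it for the 3 long ones. The -1.40 of Apoa1 and Apoa4 in shSC Day 2 rest on 15 and 3 counts.

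**Figure D4:**
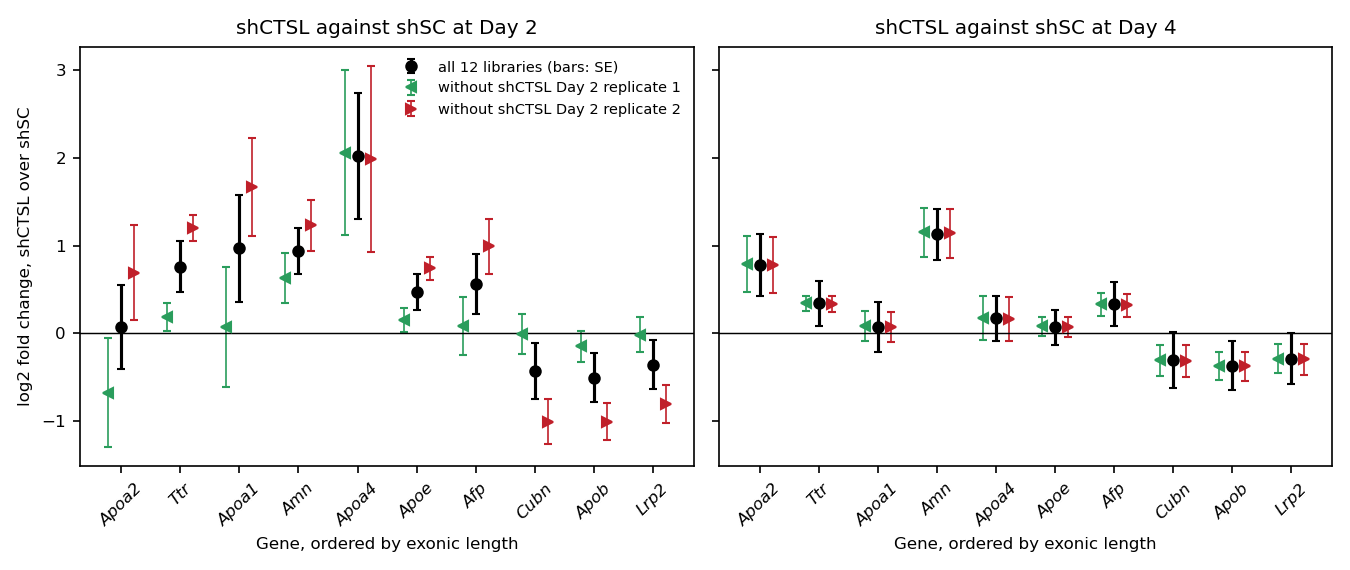
log2 fold change of shCTSL over shSC at Day 2 and Day 4 for each gene in order of exonic length, with SE bars, with all 12 libraries (black) and without replicate 1 (green) or replicate 2 (red) of shCTSL Day 2. At Day 2 the value of Cubn runs from -0.01 to -1.01 and that of Ttr from 0.19 to 1.20 with the library left out. The Day 4 values, such as 1.13 to 1.15 for Amn, could hardly move, since the libraries left out are not part of that comparison.

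Genes that work with these proteins were counted in lists chosen by function, with earlier results of these data known. Their counts are thus no independent test against the shares of all genes. Of 19 other secreted plasma and yolk sac proteins, 13 were tested, and 8 rose and 3 fell in shSC from Day 0 to Day 4, against 8 and 2 in shCTSL. Of all genes tested, 32.1% rose and 28.7% fell in shSC and 32.3% and 27.6% in shCTSL. Rbp4, the plasma carrier of retinol that binds transthyretin, reached 62.7 ± 11.0 CPM in shSC at Day 4, against 0.493 ± 0.266 at Day 0, and 71.4 ± 3.16 against 0.555 ± 0.258 in shCTSL (SD, n = 2, log2 rises of 6.92 and 7.06). The fibrinogen gene Fgb rose from 1 count at Day 0 to 8.40 ± 1.87 CPM in shSC and 8.24 ± 1.70 in shCTSL at Day 4. Fga and Gc, a further fibrinogen chain and the vitamin D carrier, had no reads at Day 0 and reached 0.809 to 1.43 CPM on average. Fgb, Fga and Gc passed the filter on low counts only through later days, so from Day 0 they could only be called higher. The count of genes that rose in this list thus depends in part on the filter.

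Of 11 genes of lipoprotein assembly and lipid handling, 10 were tested, and 2 rose and 4 fell in shSC by Day 4, against 2 and 2 in shCTSL, beside the same shares of all genes. Mttp, which loads lipid onto apolipoprotein B, reached 33.9 ± 0.595 CPM in shSC at Day 4, against 9.55 ± 0.187 at Day 0, and 40.8 ± 8.73 against 11.0 ± 0.930 in shCTSL. Apobec1, which edits the Apob mRNA, fell to 2.38 ± 0.515 CPM at Day 4 in shSC, from 8.59 ± 1.11 at Day 0, and its shCTSL libraries fell to 3.84 and 3.59 from 9.32 and 10.7. Abca1, which passes cholesterol to apolipoprotein A-I, rose by 1.81 on the log2 scale in shSC and 1.07 in shCTSL. Among 9 other receptors of the LDL receptor family with the HDL receptor, 3 rose and 2 fell in shSC and 4 rose and 2 fell in shCTSL, where 32.1% of all genes rose and 28.7% fell in shSC. Vldlr, a receptor of Apoe-rich particles, had the largest change among the called genes of the list in shSC, to 18.4 ± 3.70 CPM from 3.25 ± 0.475, and in shCTSL it reached 14.0 ± 2.11 from 2.15 ± 0.962. Lrp1, which takes up lipoprotein remnants, rose from 71.6 ± 4.08 to 356 ± 46.6 CPM in shSC, while Lrp8 fell from 12.9 ± 1.20 to 7.60 ± 0.818.

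Of 9 adaptors, chaperones and partners of megalin and cubilin, 8 were tested and 5 rose by Day 4 in each line, with none called lower. Of all genes tested, 32.1% rose and 28.7% fell in shSC and 32.3% and 27.6% in shCTSL. Dab2, the endocytic adaptor of megalin, reached 88.9 ± 4.65 CPM in shSC at Day 4, against 3.72 ± 0.519 at Day 0, and 87.8 ± 8.20 against 4.02 ± 0.724 in shCTSL, while Lrp2 itself fell. The motor Myo6 rose by 2.50 and 2.47 on the log2 scale. Of 10 transcription factors of visceral endoderm, 9 rose and 1 fell by Day 4 in both lines, beside the same shares of all genes. Hnf4a, Foxa2, Gata4, Gata6 and Sox17 of this list, and Dab2 of the adaptors, were also counted above as visceral endoderm markers. Foxa1 rose from 0.376 ± 0.00669 to 89.2 ± 7.18 CPM and Gata6 from 0.998 ± 0.0976 to 157 ± 21.5 in shSC, and Foxa1 stood at 81.7 ± 0.243 CPM already at Day 2. In none of the 5 lists was a gene called between the lines on any day by edgeR. Of all genes, 0.0386% were at Day 0, 0.0644% at Day 2 and 0.0129% at Day 4. At an unadjusted p under 0.05 there were at most 4 in a list. These were 4 of the 8 adaptors, chaperones and partners at Day 2 and 4 of the 10 genes of lipoprotein assembly and lipid handling at Day 4. Of all 15532 genes, 3014 reached this at Day 2 and 1897 at Day 4.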

How the data were processed

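Whole-number counts of fragments per gene were deposited by the authors. Per the labels and the study's methods, poly(A) RNA was made into directional libraries, reads were aligned to mm9 with STAR 2.3.0e, alignments of mapping quality under 10, on mitochondria or on contigs were removed with SAMtools 0.1.19, and RefSeq genes were counted with featureCounts 1.6.2. The strand setting of the counting was not given in the sources used here. Members and gene lists were chosen with earlier results of these data known.

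Counts were fitted in R 4.3.3 with edgeR 4.0.16 (TMM, filterByExpr with a minimum count of 10, 15532 genes, quasi-likelihood test, a mean per group over 12 libraries, 6 residual degrees of freedom), with Benjamini-Hochberg adjustment over all genes tested. DESeq2 1.42.0 and limma-voom (limma 3.58.1) were alternatives. The fit was tested on simulated data. The replicates are called biological by the study, and 2 per group limit the precision of each SD. Genes named outside the 10 are Ctsl, cell type markers, the 5 genes nearest in pattern and, of each list, some or all of the up to 4 called genes with the largest change from Day 0 to Day 4 in shSC. Exonic lengths and mm9 positions come from GENCODE M1, found for 20561 genes by symbol and 1710 by another name. Bounds use 3 counts over a group. Numbers of replicates in the labels were not treated as pairs. Figures were drawn with Python 3.11.15 and matplotlib 3.10.9.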

Additional observations from a re-analysis of the deposited data

How the results depend on the processing

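Of the counts of genes called, 125 of 132 with 1 library left out and 104 of 110 under the other settings stayed within 1.5 times the main count. With limma-voom, 3 genes were called in shCTSL from Day 2 to Day 4 (7 in the main analysis), 1 between the lines at Day 0 (Apoa2), 1 at Day 4 and 1 in the Day 4 against Day 0 interaction (Amn in both), where the main count was 0. With only the libraries compared, these were 4 for shCTSL from Day 2 to Day 4 and 1 between the lines at Day 4. Leaving out 1 library gave 4 to 8 in shCTSL from Day 2 to Day 4, 0 to 8 between the lines at Day 2, 0 to 1 at Day 4, 0 to 1 in the Day 4 against Day 0 interaction and 0 to 2 in the Day 4 against Day 2 interaction. The cause was not tested. Over all 15532 genes, edgeR and DESeq2 called 6 and 48 between the lines at Day 0, 10 and 125 at Day 2, 2 and 132 at Day 4, and 1 and 28 in the Day 4 against Day 0 interaction.

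Replicate numbers did not pair the samples, since the replicate differences of 2 groups correlated by -0.299 to 0.104 over genes. The replicate block gave 5 genes called instead of 6 in shSC from Day 2 to Day 4 (without Lrp2, -0.90, adjusted p = 0.0564), 6 instead of 7 in shCTSL from Day 0 to Day 2 (without Apoa1, adjusted p = 0.0524) and as many as the main analysis in the other comparisons.

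Directions reversed for single genes near 0. With offsets for exonic length, Lrp2 differed by -0.22 in shSC from Day 0 to Day 2 and by 0.03 and 0.06 between the lines at Day 2 and Day 4, where Apoa2 differed by -0.35 at Day 2 and Apoa1 and Apoe by -0.14 and -0.07 at Day 4. With limma-voom, Apoa2 differed by -0.05 at Day 2, and without a filter Lrp2 by 0.01 in shCTSL from Day 0 to Day 2. With only the libraries compared, 6 values of Apoa1, Apoa2 and Apoa4 could not be had because the gene did not pass the filter there.

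With 1 library left out, the log2 change ran from -0.35 to 3.26 for Apoa4, which had 1 and 3 counts in these groups, and -0.11 to 0.21 for Lrp2 in shSC from Day 0 to Day 2, -0.51 to 0.06 for Amn in shSC to Day 4, -0.47 to 0.36 for Lrp2 in shCTSL to Day 2, and -0.66 to 0.21 for Apob and -0.53 to 0.06 for Amn in shCTSL from Day 2 to Day 4. Between the lines it ran from -0.68 to 0.69 for Apoa2 at Day 2 and, at Day 4, from -0.06 to 0.19 for Apoa1, -0.03 to 0.44 for Apoa4, -0.10 to 0.22 for Apoe, -0.72 to 0.05 for Cubn and -0.59 to 0.09 for Lrp2. The Day 4 against Day 0 interaction of Lrp2 ran from -0.27 to 0.40. That from Day 2 to Day 4 ran from -0.67 to 0.25 for Afp, -0.86 to 0.15 for Ttr, -1.67 to 0.01 for Apoa1, -0.23 to 0.62 for Apob, -0.11 to 0.52 for Amn, -0.30 to 0.68 for Cubn and -0.28 to 0.51 for Lrp2. Counts of 0 to 37 over a group at Day 0 limit what can be seen for Afp, Ttr, Apoa1, Apoa2, Apoa4 and Amn.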

Other observations

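The 5 genes outside the 10 whose profile over the 12 libraries (log2 CPM with a prior count of 0.5, centred on each gene's own mean) lay nearest to the mean profile of the 10 were Foxd2os, Matn2, Gdf11, Spon2 and Stxbp6, with root mean square differences of 0.24 to 0.30 on the log2 scale. The 10 genes themselves lay 1.03 (Apoa2) to 2.97 (Ttr) from that mean. Matn2, an extracellular matrix protein, went from 1.73 ± 0.253 to 10.6 ± 0.565 and 48.0 ± 9.81 CPM in shSC over Day 0, 2 and 4, and from 1.65 ± 0.0960 to 12.3 ± 0.0264 and 56.8 ± 1.99 in shCTSL (SD, n = 2). Gdf11, a secreted growth factor of the TGF-beta family, went from 2.95 ± 0.141 to 30.9 ± 3.01 and 88.3 ± 1.45 CPM in shSC.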
